A study of Mus musculus with 6 samples.

Results

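The genes described here encode molecular chaperones and protein folding enzymes: the HSP70, HSP90, HSP110 and small heat shock proteins, the J proteins that serve HSP70, the protein disulfide isomerases (PDIs), the CCT chaperonin, the FKBP prolyl isomerases, calreticulin and calnexin. They were taken from the count table by symbol (Hsp followed by a, b, d, e, h or a digit, Dnaja, Dnajb, Dnajc, Pdia, Cct2 to Cct8, Fkbp followed by a digit, Calr and Canx), leaving out pseudogenes. The rule uses names only and found 101 of 18180 genes, of which 91 passed the filter on low counts and were tested. The study sequenced RNA of mouse tail skin, 3 libraries in each of 2 groups. Control libraries have the genotype Mettl3fl/fl;K14creERT2-/- and come from normal tails. The others, labelled cKO, have the genotype Mettl3fl/fl;K14creERT2+/- and come from inflamed areas of the tail. All 6 libraries therefore carry the floxed Mettl3 allele, and per the series' design text tissue was collected 4 weeks after 5 days of tamoxifen. The K14 promoter drives the Cre in basal keratinocytes, while the RNA is from whole skin. Sex, age and strain are not in the labels used here. Effects of the genotype and of the inflamed state cannot be told apart, because the groups differ in both.

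Proteins fold with the help of chaperones, which hold exposed hydrophobic stretches until the chain has reached its form. HSP70 binds short stretches in a cycle started by J proteins and ended by nucleotide exchange factors such as HSP110, HSP90 matures kinases and receptors, and CCT encloses actin and tubulin. Secreted and membrane proteins fold in the endoplasmic reticulum (ER), where BiP, GRP94, calreticulin, calnexin and the PDIs act, and the genes of these ER proteins are induced together when unfolded proteins accumulate. Cytosolic chaperone genes are the classical targets of the heat shock factor HSF1. In the epidermis, small heat shock proteins are known as products of differentiating keratinocytes.

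Levels are given as CPM (reads of a gene per 1e+06 reads, after TMM scaling of the library totals) with mean ± SD and n = 3 in each group, the control value standing first. A gene was called at an adjusted p under 0.05 in edgeR's quasi-likelihood test with Benjamini-Hochberg adjustment over all 15061 genes tested, and "rose" and "fell" are used for called genes only. Fold changes and standard errors (SE) are those of the fit. Library totals ran from 35855880 to 37043849 counts. Whether each library is a different mouse is not in the labels, and p-values therefore measure only how these libraries vary, which can be technical. The count of the targeted gene does not bear out the label: Mettl3 rose from 10.7 ± 1.42 to 14.9 ± 0.832 CPM (adjusted p = 0.000102). A count per gene from whole skin cannot settle whether the allele was recombined in keratinocytes, so the label could not be checked further. Every direction below is therefore that of the libraries as labelled. Markers of basal keratinocytes were present in all libraries, with sums of 9518.5 to 9733.5 CPM in control and 12916 to 13208 CPM in the libraries labelled cKO. Of these 7 markers 3 rose and 4 fell, among them Krt14 (4157 to 7687 CPM) and Krt15 (760 to 368 CPM). Neutrophil markers rose in 8 of 8 tested, with sums of 103 to 109 CPM in control and 3549 to 3612 CPM in the inflamed tissue. Most of that sum was S100a8 (1450 CPM) and S100a9 (2039 CPM), which inflamed keratinocytes are known to make too. Of the other markers Stfa2 rose from 3.18 to 71.5 CPM, Csf3r from 1.74 to 11.6 CPM and Trem1 from 0.0826 to 4.73 CPM. Retnlg (0.254 to 1.78 CPM) and Mmp8 (0.0456 to 0.753 CPM) rose at low levels. Cxcr2 had the smallest rise, 1.69-fold (4.77 to 8.05 CPM), and Ly6g, not tested, had 0.0558 and 0.138 CPM.

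All 9 tested ER chaperones and PDIs and all 3 mitochondrial chaperones rose, as did 6 of 7 tested CCT subunits. Among genes named as small heat shock proteins 3 of 6 fell, and among J proteins of classes A and B outside the ER lumen 7 of 12 fell. In all, 39 of the 91 tested members rose and 21 fell. That makes 65.9% called, where 61.4% of all genes tested were called, so the share called is near the background. The share that rose was 42.9% among members and 30.8% among all genes tested, and the share that fell was 23.1% and 30.6%. The groups did not overlap for 63 members (69.2%, against 64.9% of all genes tested). The changes were mostly small. At least 1.5-fold, 10 members rose and 3 fell, where 12.3% and 10.3% of all genes did. Only 3 members changed at least 2-fold, or 3.3%, against 10.8% of all genes tested, and these were Hspa2, Hspb1 and Hsph1. The median log2 fold change was 0.03 over members and 0.00 over all genes. Without control replicate 2, control replicate 3, cKO replicate 3 or control replicate 1 the member median was 0.07, 0.07, 0.06 or 0.05. The 101 members together held 9195.5 ± 5.6 CPM in control and 10579 ± 47.1 CPM in the libraries labelled cKO, 1.15 times as much. The libraries of a group lay close together, and with a wider assumed biological coefficient of variation of 20% only 8 members rose and 3 fell (12.1%, against 22.3% of all genes). With 40% only Hspa2 was called, lower, where 5.14% of all genes were called.

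**Figure D1:**
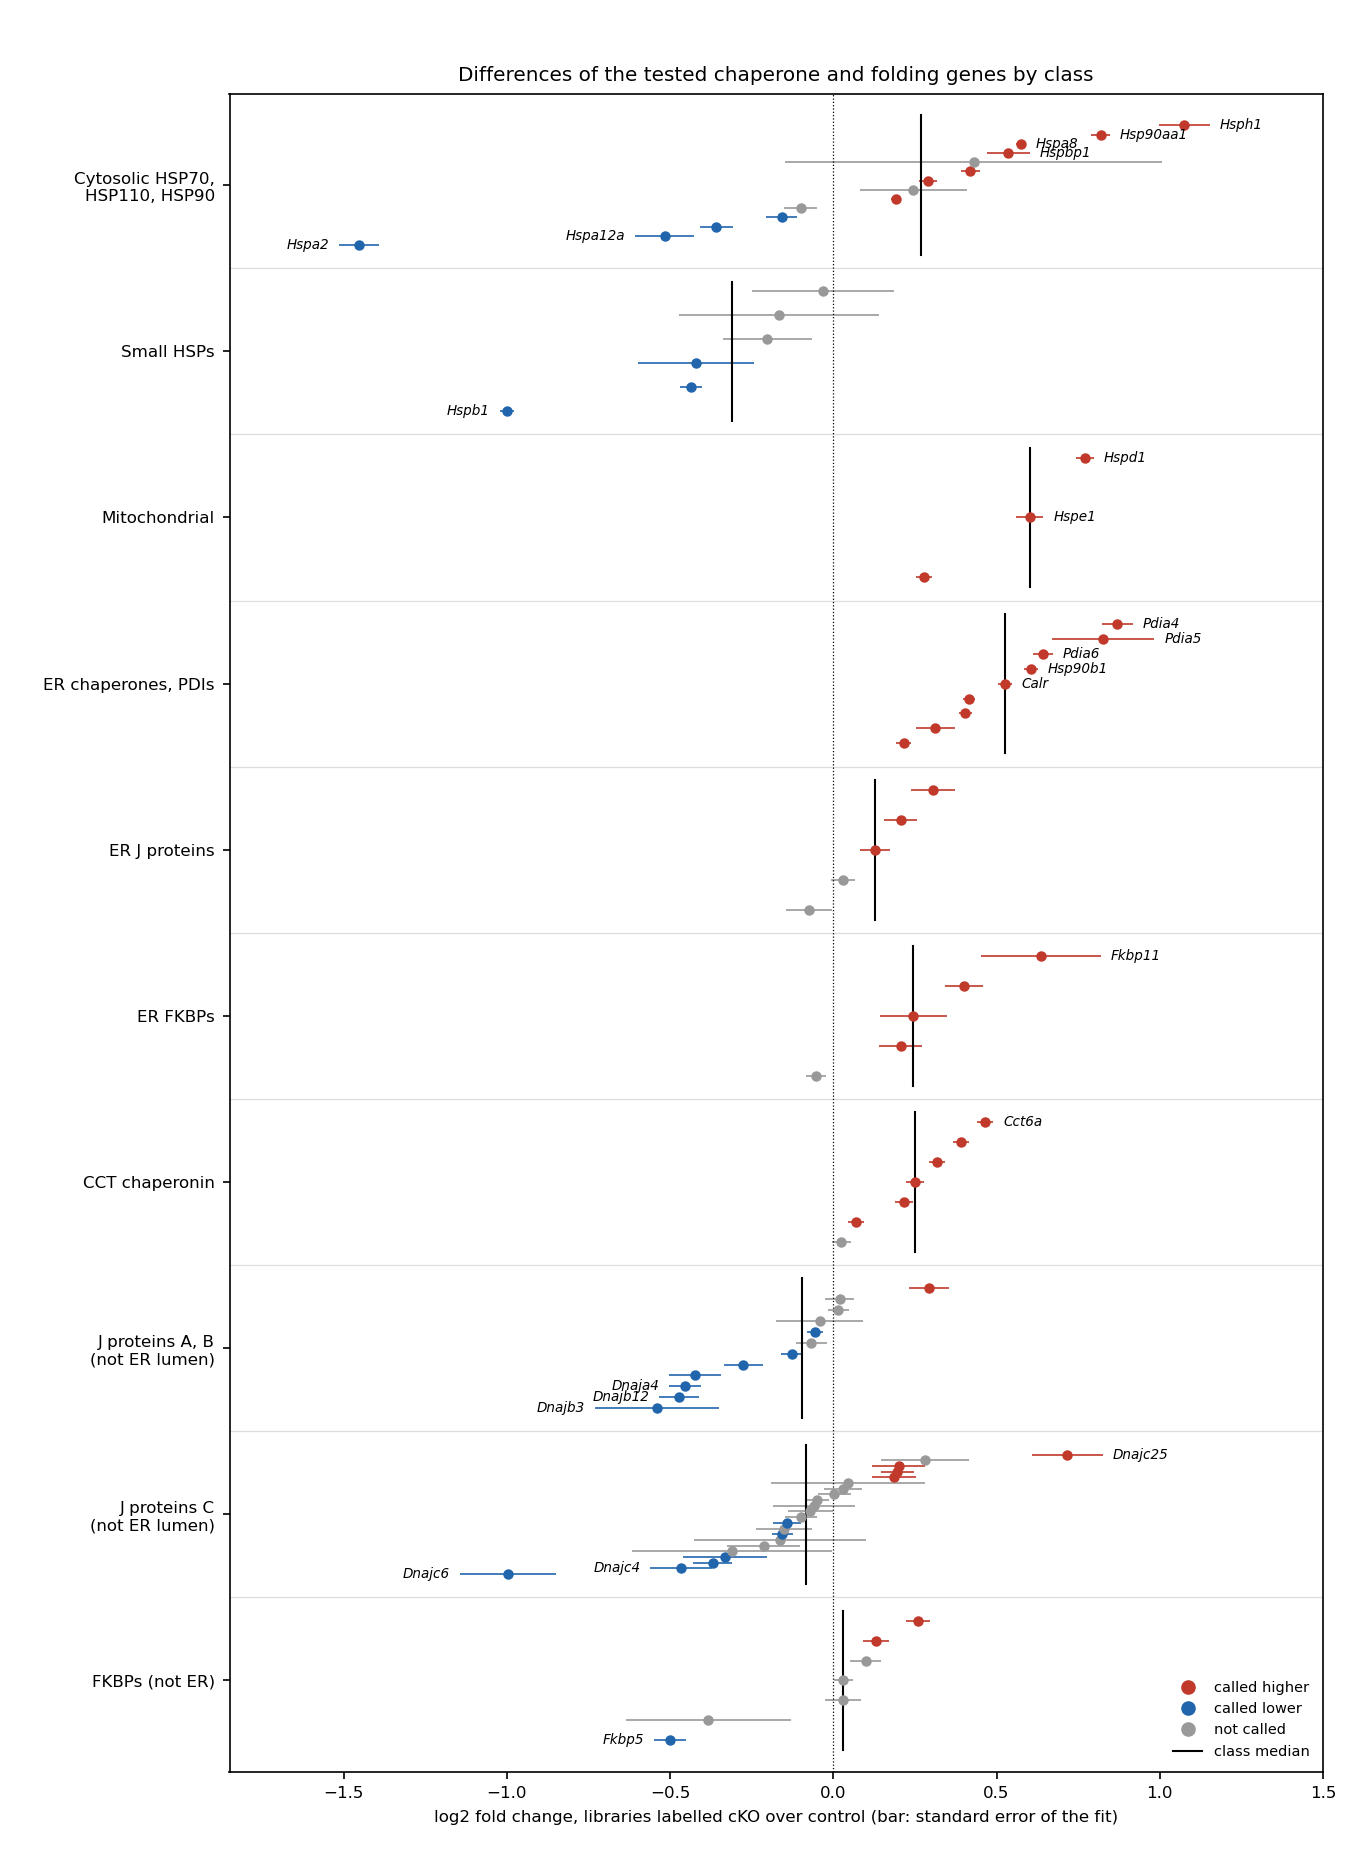
Log2 fold change of each tested member (dots, libraries labelled cKO over control, bars are standard errors of the fit), in 10 classes with the class median as a vertical line. All 9 tested ER chaperones and PDIs lie right of 0, from 0.22 to 0.87. All 6 tested genes named as small heat shock proteins, Hspb11 included, lie left of 0, from -1.0 to -0.03.

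Among the cytosolic HSP70, HSP110 and HSP90 genes, 7 of 14 rose and 4 fell (median log2 fold change 0.27). Hspa8, the constitutive HSP70 of the cytosol (NCBI gene 15481), had 659, 641 and 650 CPM in the control libraries and 971, 958 and 976 CPM in the libraries labelled cKO. The groups lay far apart, with a rise of 1.49-fold (log2 fold change 0.58, SE 0.016, adjusted p = 1.01e-45). The inducible HSP90 gene Hsp90aa1 (NCBI gene 15519) rose from 132 ± 0.406 to 233 ± 3.47 CPM, 1.76-fold (log2 fold change 0.82, SE 0.028, adjusted p = 1.44e-39). Its constitutive relative Hsp90ab1 rose only 1.14-fold, from 830 ± 10.3 to 947 ± 8.23 CPM. Per length, Hsp90ab1 stayed the more abundant of the pair, at 381 against 82.2 FPKM in the libraries labelled cKO.

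HSP70 also needs nucleotide exchange factors. Hsph1, an HSP110 gene (NCBI gene 15505), was at 15.2, 16.6 and 19.3 CPM in control and at 34.9, 34.4 and 38.2 CPM in the libraries labelled cKO, with the highest control library well below the lowest of the others. Its 2.11-fold change was the largest rise of any member (log2 fold change 1.07, SE 0.078, adjusted p = 1.61e-20). Hspa4, the other widely expressed HSP110 gene, rose 1.34-fold (140 ± 2.74 to 188 ± 1.79 CPM), and the exchange factor gene Hspbp1 rose 1.45-fold (27.8 ± 1.29 to 40.3 ± 2.36 CPM). Hspa4l, the third HSP110 gene, went the other way and fell 1.28-fold (64 ± 1.7 to 49.9 ± 2.2 CPM, adjusted p = 2.78e-09).

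The stress-inducible pair Hspa1a and Hspa1b moved in opposite directions. Hspa1a had 65.1, 66 and 65.9 CPM in control and 59.2, 59.8 and 57.6 CPM in the libraries labelled cKO (a fall by 0.16 on the log2 scale, SE 0.047, adjusted p = 0.00249). Hspa1b had 180, 178 and 189 CPM against 223, 217 and 228 CPM (a rise by 0.29 on the log2 scale, SE 0.027, adjusted p = 2.56e-15). The 2 genes are near-identical copies and the counting may have divided reads between them, which leaves their single values uncertain. Their sum was 248 ± 5.91 CPM in control and 282 ± 4.5 CPM in the libraries labelled cKO, without overlap between groups. Hspa2, an HSP70 gene best known from male germ cells, had the largest fall of all members. It was at 58.4, 59.3 and 60.7 CPM in control and at 20, 22.1 and 23 CPM in the libraries labelled cKO, a 2.74-fold fall (log2 fold change -1.45, SE 0.061, adjusted p = 9.54e-34). Hspa12a, a distant HSP70 relative, fell 1.43-fold (20.7 ± 0.656 to 14.5 ± 0.795 CPM). Hspa14, Hspa12b and Hspa1l did not pass the test, with adjusted p of 0.0866, 0.195 and 0.533.

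**Figure D2:**
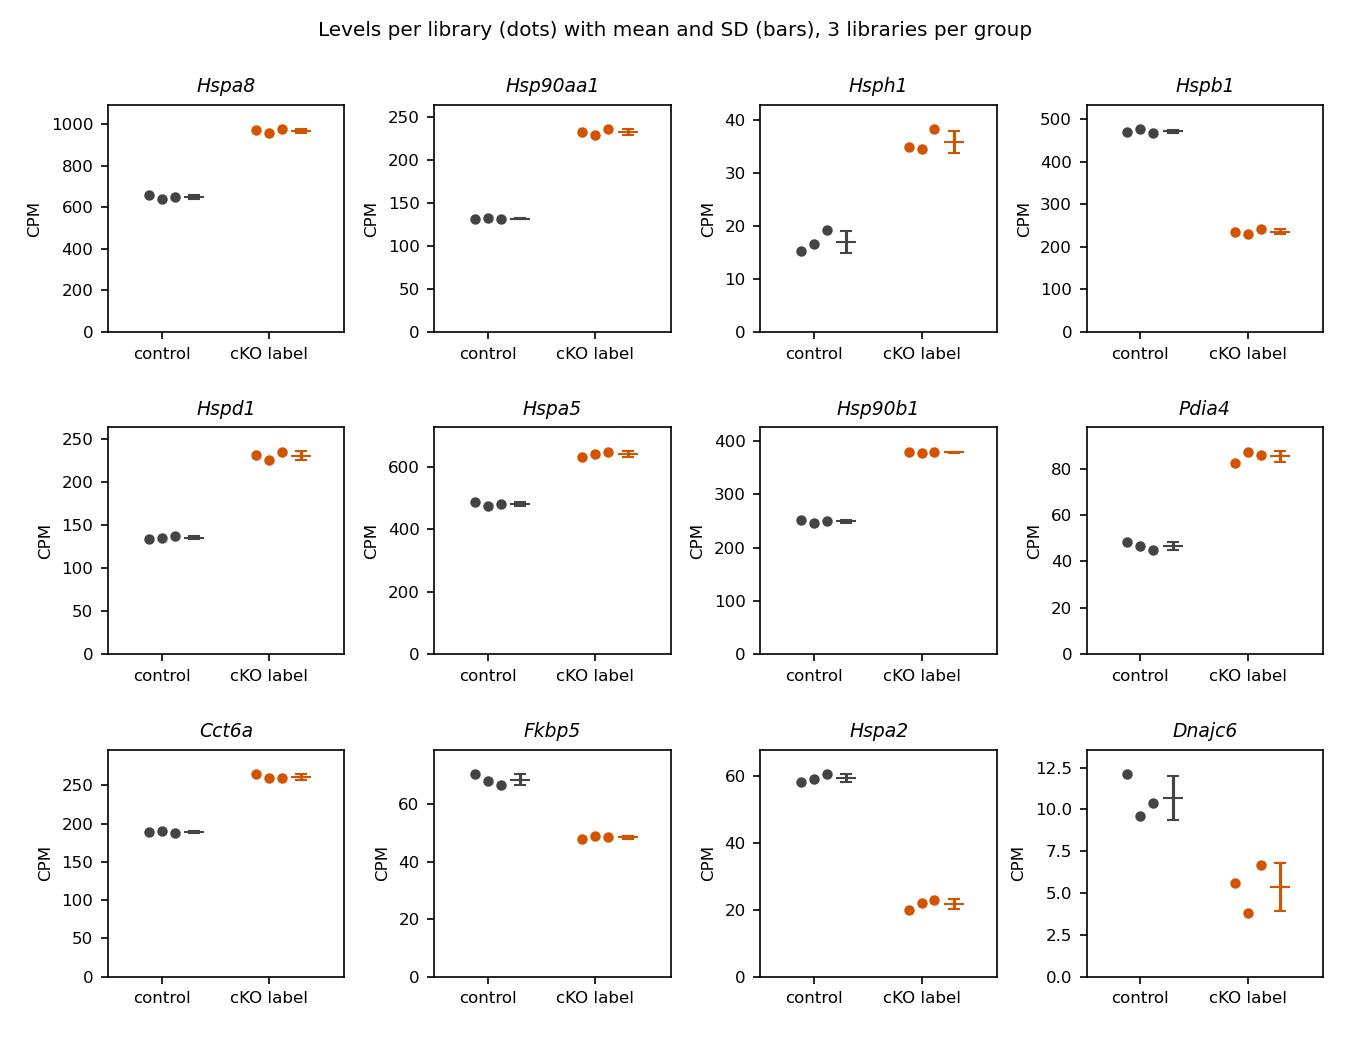
CPM of 12 members in each library (dots, 3 per group) with mean and SD (bars to the right of the dots), each axis starting at 0. In all 12 panels the groups do not overlap, and Hspb1, Fkbp5, Hspa2 and Dnajc6 are the panels where the libraries labelled cKO are lower.

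Small heat shock proteins, which bind unfolding proteins without using ATP, had 3 of 6 tested members that fell and none that rose (median log2 fold change -0.31). Hspb1, or HSP27 (NCBI gene 15507), was the member with the highest level per length in control, at 515, 523 and 515 FPKM, and it dropped to 261, 258 and 270 FPKM in the libraries labelled cKO. All 3 libraries labelled cKO were close to the same lower level. In CPM it went from 471 ± 4.28 to 236 ± 5.83, a 2.0-fold fall (log2 fold change -1.0, SE 0.021, adjusted p = 1.77e-52). By FPKM it moved from rank 1 to rank 3 among the members, below Hspa8, which moved from rank 3 to rank 1, and Hsp90ab1, which kept rank 2, and at each of these ranks the libraries of neighbouring genes did not overlap within a group.

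Hspb8, the small heat shock protein that works with the co-chaperone BAG3 in clearing aggregates, fell 1.35-fold, with 146, 147 and 142 CPM against 105, 110 and 107 CPM (adjusted p = 1.51e-19). Hspb6, known from muscle, was low and fell with overlapping groups (5.45, 7.23 and 4.82 against 3.35, 4.71 and 5.0 CPM, adjusted p = 0.0356). Its call was lost without control replicate 2 (adjusted p = 0.322) and without cKO replicate 1 (adjusted p = 0.241). With all libraries the call was also lost by DESeq2 (adjusted p = 0.0776) and by limma on log2(FPKM + 1) (adjusted p = 0.084). Hspb2, Hspb7 and Hspb11, the last of which is a part of the transport system of cilia in spite of its name, did not pass the test. Hspb11 is counted in the class, and in its median, by name only. The alpha-crystallin gene Cryab, a small heat shock protein outside the naming rule, fell 1.5-fold (26.2 ± 2.56 to 17.4 ± 1.6 CPM, adjusted p = 7.48e-09).

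Hspb6 and Cryab are muscle-type genes, and markers of smooth muscle also moved. Of 9 smooth muscle markers 7 fell, and their summed level was 441 to 446 CPM in control and 297 to 311 CPM in the libraries labelled cKO, with no marker at 0. Of 14 tested skeletal muscle markers 3 rose and none fell, with sums of 23.4 to 32.2 CPM and 34.6 to 55.4 CPM over all 17. Hair shaft markers fell too (8 of 9, sums of 7373 to 7582 CPM and 2359 to 2377 CPM), while suprabasal keratinocyte markers summed to 42169 to 42416 CPM and 57106 to 57728 CPM with 4 of 6 higher and 2 lower. The part of these cell types in the fall of Hspb1, Hspb6 and Hspb8 was not tested. In whole skin, fewer cells of a type and less RNA per cell cannot be told apart.

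The 3 chaperone genes of the mitochondrial matrix all rose (median log2 fold change 0.60). Hspd1 (HSP60, NCBI gene 15510), which forms the folding chamber, had 134, 135 and 137 CPM in control and 232, 226 and 236 CPM in the libraries labelled cKO. No library came near the other group, and the rise was 1.71-fold (log2 fold change 0.77, SE 0.028, adjusted p = 9.48e-38). Hspe1 (HSP10, NCBI gene 15528), the lid of that chamber, rose 1.52-fold, from 61.1, 66.3 and 65 to 99.4, 95.6 and 96.8 CPM (log2 fold change 0.60, SE 0.042, adjusted p = 2.72e-21). Hspa9, the HSP70 of the mitochondria, rose 1.21-fold (232 ± 5.81 to 281 ± 7.16 CPM).

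Hspd1 and Hspe1 stand head to head, and their promoters share a heat shock element, the motif bound by HSF1. It was searched as 3 alternating units, GAA, TTC and GAA, or TTC, GAA and TTC, with 2 bases of any kind between units, which covers both strands since each form is the other one read on the opposite strand, in windows from 250 bases before to 50 bases after annotated starts (RefSeq, GRCm38.p6). Gene numbers gave a window for 85 of the 101 members, and 4 of these genes (4.71%) hold the motif, against 179 of 27025 genes with a window in all (0.662%). These shares were not tested. Those 4 genes are Hspd1, Hspe1, Hsph1 and Dnajb6, and they are printed because they are the only members with a match. The 16 members without a window were not searched. Only complete units inside the window count, so a gene without a match may still hold the element. Of 77 genes with a window from the partner lists described further below, 1 (1.3%) holds the motif. It is Chordc1, which rose (log2 fold change 0.34). Capitals mark the fixed letters of the units, each site has 5 bases on either side, and positions count from the annotated start of the gene.
Hspe1 site, chr1:55088054-55088081, plus strand, from -89 to -72, the same bases as -144 to -127 of Hspd1: gtccgTTCtaGAAccTTCcgGAAggccc
Hsph1 site, chr5:149636283-149636305, minus strand, from 16 to 28: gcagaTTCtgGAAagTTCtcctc
Dnajb6 site, chr5:29735847-29735869, plus strand, from -46 to -34: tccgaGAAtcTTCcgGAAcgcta
The Hspe1 and Hspd1 site holds 4 alternating units and the others 3. Hspd1, Hspe1 and Hsph1 rose. Dnajb6, a J protein gene, had 81.4 ± 4.92 CPM in control and 82.5 ± 4.51 CPM in the libraries labelled cKO (adjusted p = 0.718), so a gene with the motif was among those not called. The coordinates are of GRCm38.p6 and not of the mm39 build of the deposited tables.

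In the ER lumen all 9 tested chaperones and PDIs rose, from 1.16-fold to 1.83-fold, and none of their groups overlapped (median log2 fold change 0.52). Their summed level went from 1808 ± 9.85 to 2487 ± 12.3 CPM, 1.38 times as much. Hspa5, or BiP, the HSP70 of the ER (NCBI gene 14828), had 486, 474 and 479 CPM in control and 632, 641 and 648 CPM in the libraries labelled cKO. That is a 1.33-fold rise (log2 fold change 0.42, SE 0.018, adjusted p = 2.26e-33). Hsp90b1, or GRP94, the HSP90 of the ER (NCBI gene 22027), had 251, 246 and 250 CPM against 380, 377 and 379 CPM, and rose 1.52-fold (log2 fold change 0.61, SE 0.022, adjusted p = 4.30e-38). The spread within either group was a few CPM, small beside the distance between groups.

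The lectin chaperones hold glycoproteins during folding. The soluble one, Calr, rose 1.44-fold (283 ± 7.29 to 407 ± 1.61 CPM), and the membrane-bound one, Canx, rose 1.16-fold (267 ± 2.92 to 310 ± 2.47 CPM, adjusted p = 1.13e-13). PDIs form and rearrange disulfide bonds. Pdia4 rose most, from 48.4, 46.8 and 44.8 to 82.5, 87.3 and 86 CPM, 1.83-fold (log2 fold change 0.87, SE 0.047, adjusted p = 2.23e-27). Pdia5 rose 1.77-fold at a low level (4.64 ± 0.535 to 8.23 ± 1.28 CPM) and Pdia6 1.56-fold (115 ± 2.47 to 179 ± 2.96 CPM). Pdia3, the partner of calreticulin and calnexin, rose 1.32-fold (330 ± 4.73 to 436 ± 2.72 CPM). Hspa13, an HSP70 relative of microsomes, rose 1.24-fold (33.4 ± 0.547 to 41.5 ± 1.26 CPM).

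Promoters of ER chaperone genes are known for the ER stress element, CCAAT and CCACG with 9 bases of any kind between them, which is bound by the transcription factors NF-Y and ATF6. These letters were searched on both strands of the same windows, and no member window held both motifs. Of the 85 members with a window 6 hold it (7.06%), against 37 of 27025 genes (0.137%), again without a test. The 7 sites of these 6 genes are printed so that the bases between and around the searched letters can be compared, each read on the strand that gives CCAAT first, with the fixed letters in capitals and 5 bases on either side.
Hspa5 site, chr2:34772020-34772048, plus strand, from -65 to -47: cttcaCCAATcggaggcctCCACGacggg
Hsp90b1 first site, chr10:86705633-86705661, minus strand, from -212 to -194: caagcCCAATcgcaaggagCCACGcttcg
Hsp90b1 second site, chr10:86705528-86705556, plus strand, from -107 to -89: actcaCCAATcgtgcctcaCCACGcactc
Calr site, chr8:84847070-84847098, plus strand, from -162 to -144: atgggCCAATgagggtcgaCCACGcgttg
Canx site, chr11:50325795-50325823, minus strand, from -145 to -127: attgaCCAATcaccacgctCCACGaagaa
Pdia6 site, chr12:17266486-17266514, plus strand, from -98 to -80: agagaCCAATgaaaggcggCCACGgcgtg
Dnajc3 site, chr14:118937822-118937850, plus strand, from -105 to -87: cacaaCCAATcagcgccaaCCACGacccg
Hsp90b1 is the only member with 2 sites, and they face each other in the stretch from -220 to -71 of its promoter, chr10:86705515-86705664 on the minus strand, where the second site reads as its reverse complement.
Hsp90b1 promoter: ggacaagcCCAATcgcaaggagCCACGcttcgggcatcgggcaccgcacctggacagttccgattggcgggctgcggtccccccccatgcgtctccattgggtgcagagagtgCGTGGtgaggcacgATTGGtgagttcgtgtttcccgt
Of the 6 genes, Hspa5, Hsp90b1, Calr, Canx and Pdia6 rose. Dnajc3 did not pass the test, with 98, 103 and 106 CPM in control and 104, 105 and 104 CPM in the libraries labelled cKO (adjusted p = 0.499). Pdia4, the ER gene with the largest rise, has no match in its window. Among 77 genes of partner lists with a window, 4 (5.19%) hold the ER stress element, of which Creld2 rose (log2 fold change 0.36) and Ero1b, Syvn1 and Derl3 did not pass the test.

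**Figure D3:**
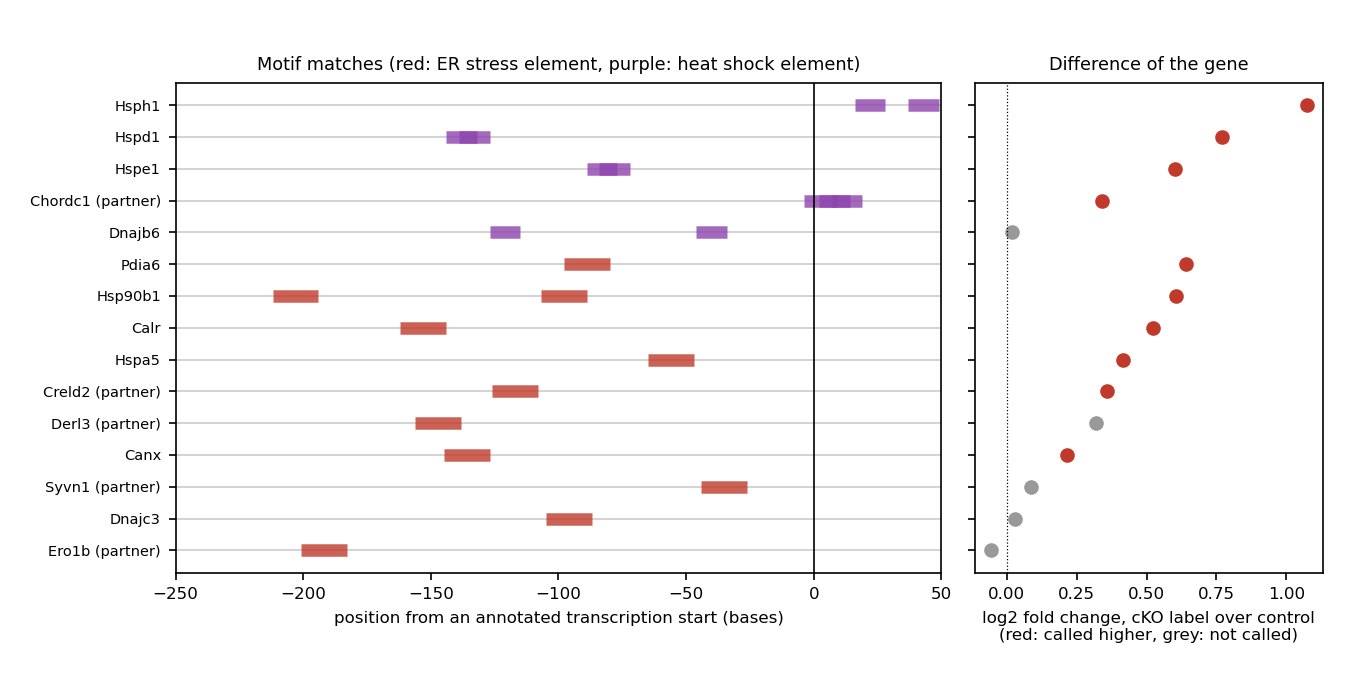
Left, positions of ER stress elements (red) and heat shock elements (purple) from 250 bases before to 50 bases after annotated starts, for the members and partner genes with a match; Hsph1 and Dnajb6 each have 1 site drawn from 2 annotated starts. Right, the log2 fold change of each gene, where 10 of 15 genes were called higher (red) and 5 were not called (grey).

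The J proteins of the ER lumen, which drive BiP, had smaller fold changes: 3 of 5 rose and none fell (median log2 fold change 0.13). Dnajc1 rose 1.23-fold (28.9 ± 2.03 to 35.7 ± 2.61 CPM) and Dnajb11, a stable partner of BiP, 1.15-fold (52.1 ± 2.45 to 60.2 ± 1.96 CPM, adjusted p = 0.000273). Dnajc10, a J protein with disulfide reductase activity, rose 1.09-fold (67.5 ± 2.73 to 73.8 ± 2.66 CPM, adjusted p = 0.0113), a call lost without control replicate 2 (adjusted p = 0.0961) and without cKO replicate 3 (adjusted p = 0.0646). Dnajb9 had 29.8 ± 1.28 and 28.3 ± 1.81 CPM and did not pass the test (adjusted p = 0.359).

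FKBPs speed the turning of proline bonds, and those of the ER act on collagens and other secreted chains. Of 5 tested ER FKBPs 4 rose and none fell (median log2 fold change 0.24). Fkbp10, a collagen chaperone gene, had 33.8, 36.6 and 37 CPM in control and 47.6, 45.5 and 48.4 CPM in the libraries labelled cKO, a 1.32-fold rise (log2 fold change 0.40, SE 0.058, adjusted p = 9.77e-09). Fkbp11, known from secretory cells, rose 1.55-fold at a low level (3.55 ± 0.623 to 5.51 ± 0.435 CPM, adjusted p = 0.00192) and Fkbp7 1.15-fold. Fkbp14 rose 1.18-fold (adjusted p = 0.0343), a call lost without control replicate 1 (adjusted p = 0.113), without control replicate 2 (adjusted p = 0.0617) and without cKO replicate 3 (log2 fold change 0.14, adjusted p = 0.312). With all libraries the call was also lost by DESeq2 (adjusted p = 0.065) and by limma on log2(FPKM + 1) without a filter (adjusted p = 0.0794). Fkbp9 had 150 ± 2.36 and 145 ± 3.95 CPM and did not pass the test.

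Serpinh1, or HSP47, the ER chaperone of collagen and a gene outside the naming rule, rose 1.7-fold (155 ± 1.69 to 265 ± 2.43 CPM, adjusted p = 1.17e-39). Of 7 fibroblast and collagen markers 6 rose and 1 fell, with sums of 11230 to 11334 CPM in control and 16379 to 16411 CPM in the libraries labelled cKO, and no marker at 0. Their part in the rise was not tested. Of 6 plasma cell and B cell markers 3 were tested and 2 rose, Xbp1 and Sdc1, both also keratinocyte genes, and the antibody-secretion markers Jchain and Mzb1 stayed at 0.145 and 0.0635 CPM in control and at 0.266 and 0.0367 CPM in the libraries labelled cKO, near the 0.0817 to 0.0837 CPM that 3 counts make in a library.

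The CCT chaperonin is a ring of unlike subunits. Of its 7 tested genes here 6 rose and none fell (median log2 fold change 0.25), with the sum over all 8 members going from 1333 ± 11.2 to 1594 ± 10.6 CPM. The rises differed in size between subunits of what is 1 complex. Cct6a went from 189, 191 and 187 to 265, 259 and 259 CPM, 1.38-fold (log2 fold change 0.46, SE 0.025, adjusted p = 2.13e-27). Cct5, Cct8 and Cct3 rose 1.31-fold, 1.25-fold and 1.19-fold, Cct7 rose 1.16-fold, and Cct2 rose 1.05-fold (225 ± 0.486 to 236 ± 5.2 CPM, adjusted p = 0.0118). Cct4 did not pass the test, with 170 ± 1.76 and 172 ± 4.55 CPM (adjusted p = 0.466). Tcp1, the first subunit, which the naming rule does not take, rose 1.05-fold (log2 fold change 0.08, adjusted p = 0.00343).

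J proteins of classes A and B outside the ER lumen leaned lower: 7 of 12 fell and 1 rose (median log2 fold change -0.10). Dnajb12 and Dnajb14, which sit in the ER membrane and face the cytosol, fell 1.39-fold (42.8 ± 1.11 to 30.8 ± 0.547 CPM) and 1.34-fold (26.1 ± 1.63 to 19.4 ± 1.28 CPM). Dnaja4 fell 1.37-fold, from 67.1, 71.5 and 68.2 to 49.8, 49.7 and 51.5 CPM (log2 fold change -0.45, SE 0.049, adjusted p = 4.05e-13). Dnajb2, known from neurons, fell 1.21-fold (48.1 ± 1.22 to 39.7 ± 4.01 CPM). Dnajb1, the classical heat-induced HSP40 gene, fell by 0.13 on the log2 scale with overlapping groups (144, 154 and 141 against 141, 132 and 129 CPM, adjusted p = 0.000826), and did not pass the test by limma on log2(FPKM + 1) (adjusted p = 0.0709). Dnaja1 and Dnajb6, the partners of HSP70 with levels of 132 ± 5.78 and 81.4 ± 4.92 CPM in control, did not pass the test. Dnaja3, a J protein of the mitochondria, was the only member of the class to rise (33.8 ± 1.5 to 41.4 ± 3.1 CPM, 1.23-fold, adjusted p = 3.54e-05).

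Class C holds J proteins with varied tasks, and 6 of its 22 tested members fell, 4 rose and 12 did not pass the test (median log2 fold change -0.08). Dnajc6, or auxilin, which helps HSC70 to strip clathrin from vesicles, had the largest fall: 12.1, 9.57 and 10.4 CPM in control and 5.62, 3.8 and 6.65 CPM in the libraries labelled cKO (1.995-fold, log2 fold change -0.997, SE 0.15, adjusted p = 2.07e-08). Dnajc25 had the largest rise, from 9.49 ± 0.573 to 15.6 ± 0.875 CPM, 1.64-fold (adjusted p = 2.59e-08). Dnajc4 fell 1.38-fold (19 ± 1.09 to 13.8 ± 0.43 CPM), and Dnajc21, a ribosome maturation factor gene, fell 1.29-fold (42.8 ± 1.17 to 33.1 ± 1.08 CPM). Calls at the margin depended on single libraries, and that of Dnajc15 also on the method. Dnajc17 fell 1.26-fold (adjusted p = 0.0209), with adjusted p of 0.0585, 0.0869 and 0.155 without control replicate 2, control replicate 3 and cKO replicate 3. Dnajc15, of the inner mitochondrial membrane, rose 1.15-fold (adjusted p = 0.0273), with adjusted p of 0.069, 0.171 and 0.115 without control replicate 1, control replicate 3 and cKO replicate 2. By DESeq2 with all libraries its adjusted p was 0.0524.

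Of 7 tested FKBPs outside the ER 2 rose and 1 fell (median log2 fold change 0.03). Fkbp5, an HSP90 co-chaperone and a textbook glucocorticoid-induced gene, fell 1.41-fold, from 70.5, 68.1 and 66.6 to 47.7, 49 and 48.4 CPM (log2 fold change -0.50, SE 0.049, adjusted p = 1.15e-14). Its close relative Fkbp4, which competes for the same HSP90 site, rose 1.2-fold (96.4 ± 3.74 to 115 ± 4.24 CPM, adjusted p = 6.04e-09). Libraries of the 2 groups did not overlap for either gene. Fkbp1a, the target of the drug FK506, rose 1.1-fold (86.6 ± 2.85 to 94.9 ± 4.39 CPM), and Fkbp3, Fkbp8, Fkbp15 and Fkbp1b did not pass the test.

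The 10 members left untested had 5 to 39 counts over all 6 libraries: Cct6b, Dnajb7, Dnajb13, Dnajc5b, Dnajc22, Fkbp2, Fkbp6, Hspb3, Hspb9 and Pdia2. Several of these are known mainly from testis. Fkbp2, a FKBP of the ER, had no count in control, and the libraries labelled cKO held 2, 1 and 2 counts, too few for a difference to be detectable at this depth. How reads shared with overlapping genes were counted is not given, so the counts of Fkbp2 need not reflect the level of its RNA. Hspbap1, which binds small heat shock proteins and belongs to none of the classes, did not pass the test (log2 fold change 0.12, adjusted p = 0.455).

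Genes that work with the members but lie outside the naming rule were listed by function. Of 94 tested, 41 rose and 20 fell. The share called was 64.9%, near the 61.4% of all genes tested. Among all genes tested 30.8% rose and 30.6% fell. The counts per partner list below were not tested against these shares. Co-chaperones of HSP70 and HSP90 split, 10 of 26 higher and 6 lower (median log2 fold change 0.10). Ppid, a cyclophilin that binds HSP90, rose 1.88-fold (24.8 ± 1.53 to 46.7 ± 3.78 CPM, adjusted p = 9.97e-21), and Bag2, an exchange factor of HSP70, rose 1.83-fold (18.4 ± 1.35 to 33.6 ± 0.601 CPM). The HSP90 co-chaperone gene Ptges3 (p23) rose 1.4-fold (75.5 ± 0.884 to 106 ± 4.12 CPM). Of those that fell, Sgtb fell most, 1.36-fold at a low level (6.49 ± 1.03 to 4.76 ± 0.72 CPM, adjusted p = 0.0163). Bag1 fell 1.25-fold (173 ± 1.36 to 139 ± 4.2 CPM, adjusted p = 2.51e-15), and neither gene had overlapping groups. Tomm34 fell 1.29-fold with overlapping groups (25 ± 4.41 to 19.3 ± 1.01 CPM).

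Of 20 other folding factors of the ER 15 rose and 1 fell (median log2 fold change 0.15). Besides Serpinh1, the largest rises were those of Sdf2l1, which keeps BiP substrates soluble (7.01 ± 1.19 to 10.9 ± 1.48 CPM, 1.56-fold), and of the BiP exchange factor gene Hyou1 (48.2 ± 2.09 to 71.2 ± 2.26 CPM, 1.48-fold). P4hb, the founding PDI gene, rose 1.3-fold (487 ± 5.98 to 632 ± 4.19 CPM), and per length its control level of 169 FPKM was above the 124 FPKM of Pdia3. Sdf2 was the gene that fell (log2 fold change -0.16). In ER-associated degradation, which removes proteins that failed to fold, 4 of 11 genes fell and none rose (median log2 fold change -0.01). Herpud1, a further gene known for its induction by ER stress, fell 1.52-fold, from 99.3, 95.9 and 94.8 to 62, 64.1 and 64.7 CPM (adjusted p = 1.56e-21). Edem3 fell 1.48-fold (110 ± 1.04 to 74.1 ± 1.04 CPM), and Selenos fell 1.26-fold. With scaling by library totals or by the upper quartile, 2 genes of this list were called higher.

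Of 9 mitochondrial quality control genes 5 rose and 2 fell (median log2 fold change 0.19), led by Trap1, the HSP90 of mitochondria (45.5 ± 2.14 to 66.9 ± 1.14 CPM, 1.47-fold). The exchange factor genes of mitochondrial HSP70 went apart, Grpel1 up 1.18-fold and Grpel2 down 1.18-fold. Of 13 prefoldin and tubulin folding genes 6 rose and 4 fell (median log2 fold change 0.02), with Pfdn4 1.47-fold higher (15.3 ± 1.15 to 22.5 ± 1.69 CPM) and Pfdn5 1.38-fold lower (151 ± 2.44 to 110 ± 2.26 CPM). Of 14 tested regulators of the heat shock and unfolded protein responses 5 rose and 2 fell (median log2 fold change 0.03). Hsf1 rose 1.24-fold (17.9 ± 1.74 to 22.3 ± 1.86 CPM, adjusted p = 0.00125), Atf4 1.16-fold (207 ± 4.31 to 240.0 ± 3.76 CPM), and Creb3l2 1.4-fold. The ER stress sensor genes Ern1 (IRE1) and Atf6 fell 1.25-fold and 1.19-fold, and Eif2ak3 (PERK) did not pass the test (adjusted p = 0.207). Atf6b, the relative of Atf6, rose 1.11-fold with overlapping groups (43.9 ± 1.51 to 48.5 ± 4.34 CPM, adjusted p = 0.0232). Xbp1 rose 1.09-fold (150 ± 3.53 to 164 ± 1.47 CPM, adjusted p = 0.000206).

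Calls among the members were counted by level. Of the 31 tested members with a mean of at least 100 CPM over the 6 libraries 20 rose and 5 fell (median log2 fold change 0.25), where 37.3% of all genes at that level rose and 48.4% fell (median -0.05). Of the 41 members between 10 and 100 CPM 17 rose and 12 fell (41.5% and 29.3%, against 33.0% and 34.1% of all genes at that level). Of the 19 below 10 CPM 2 rose and 4 fell (10.5% and 21.1%, against 24.9% and 18.5%). By the annotation in the deposited table, 8 of 10 members with the term endoplasmic reticulum lumen rose and none fell (median 0.41), against 30 and 17 of 70 genes with that term in all (median 0.05). Of 23 members annotated to the mitochondrion 14 rose and 3 fell, against 557 and 475 of 1612 genes in all. Of 42 annotated to the nucleus 15 rose and 17 fell, against 1753 and 1458 of 5211. Of 31 members annotated with ATP binding 20 rose and 6 fell (median 0.28), against 433 and 357 of 1258 genes in all. Of 9 members annotated to the response to heat 3 rose and 3 fell, against 10 and 15 of 34.

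**Figure D4:**
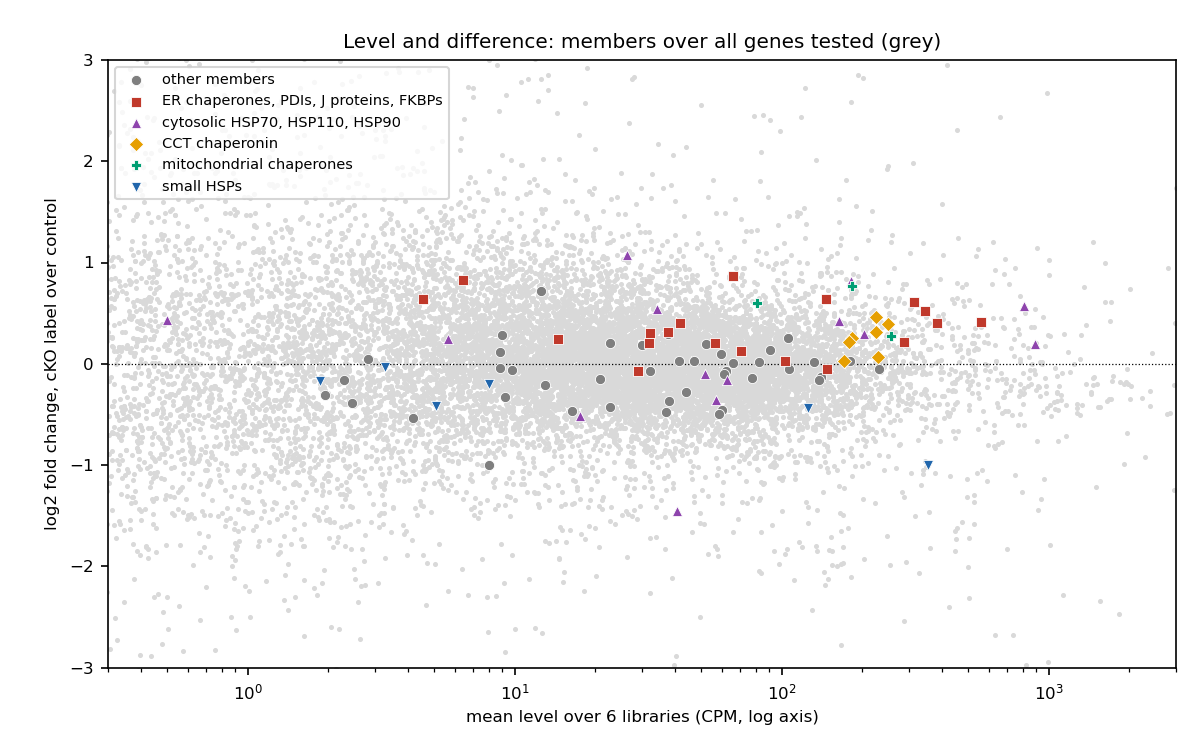
Mean level over 6 libraries (CPM, log axis) against log2 fold change (libraries labelled cKO over control) for members (coloured by class) and all genes tested (grey; 184 genes beyond 3 in either direction are not drawn, none of them a member). The members lie in the inner part of the cloud. At high levels the ER chaperones and PDIs, the CCT subunits and the mitochondrial chaperones lie above 0. Fkbp9, drawn with the ER members, lies at -0.05, and Hspb1 lies at -1.0.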

How the data were processed

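RNA of tail skin was extracted with TRIzol, per the labels' protocols, and sequenced in 3 control libraries and 3 libraries labelled cKO. The authors deposited raw counts per gene and FPKM for 18180 genes. The submitters' processing notes name fastp, HISAT2, HTSeq and the build mm39. Versions, strand setting and the handling of multi-mapped reads: not given in the sources used here. Reads of antisense or overlapping genes, near-identical copies and processed pseudogenes therefore cannot be told apart. The deposited FPKM equal the counts divided by 1 length per gene and the column total. No value column was left unmapped.

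Counts were analysed in R 4.3.3 with edgeR 4.0.16 (filterByExpr with minimum count 10 and total 15, TMM, robust quasi-likelihood fit, group as the only term); steps were tested on simulated data. The common biological coefficient of variation was 5.34%. Each SE was derived from the fold change and the F statistic. Tests were two-sided throughout. Exact permutation of 3 against 3 libraries cannot go below 0.1.

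The members, classes, partner lists and marker lists were chosen with earlier results of these data known. Named genes are, per class, up to 4 called members with the largest change in the majority direction and 2 in the other (at least 5 CPM in the higher group), 17 fixed chaperone genes, and likewise up to 3 and 2 per partner list; others complete small counts or were chosen after their values were seen. Alternatives used DESeq2 1.42.0, limma 3.58.1 (voom, or log2 of FPKM), other scalings and filters, a replicate block, assumed spreads and left-out libraries. Same-numbered libraries were not paired.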

Additional observations from a re-analysis of the deposited data

How the results depend on the processing

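Under the alternatives other than an assumed spread, 34 to 41 members were called higher and 17 to 21 lower, and 32 to 44 and 15 to 22 partner genes. The spread between libraries decides how many pass. With an assumed biological coefficient of variation of 20%, 8 members were higher (Hsph1, Pdia4, Pdia5, Hsp90aa1, Hspd1, Dnajc25, Pdia6 and Hsp90b1) and 3 lower (Hspa2, Hspb1 and Dnajc6), 12.1% against 22.3% of all genes, with 4 partner genes higher and 1 lower. With 40%, 0 members were higher and 1 lower, and 0 partner genes were higher and 0 lower, where 5.14% of all genes were called. No called gene or count reversed under the alternatives run. The replicate number as a block gave 40 members higher and 20 lower; same-numbered libraries shared only a number (correlations of their deviations of -0.02, -0.01 and -0.04). Leaving out 1 library gave 37 to 39 members higher and 18 to 21 lower. DESeq2 gave 37 and 19. Tested members with a mean under 10 CPM have SEs of 0.125 to 0.576 on the log2 scale, so small differences in them were not detectable at this depth.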
